A study of Arabidopsis thaliana with 2 samples.

Results

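The genes described here are the core circadian clock genes of Arabidopsis thaliana, measured by strand-specific mRNA-Seq of poly(A) RNA in early globular embryos. They were chosen by locus identifier from a list of 10 well-studied clock genes, of which 9 have a row in the table of 20612 loci. PRR9 (AT2G46790) has none and was not analysed here. There were 2 libraries, 1 of wild-type Col-0 embryos and 1 of dcl1-5 embryos, which carry a mutant allele of DCL1, the Dicer-type RNase of plant microRNA maturation. Each library was made from a pool of 30 embryos dissected by hand from plants kept at 16 h of light and 8 h of dark, and its RNA was amplified linearly in 2 rounds. The hour of the day at which embryos were dissected is stated in none of the sources used here, so an effect of genotype on a rhythmic transcript and a difference in hour cannot be told apart.

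The plant clock is a network of transcriptional repressors that act in turn through the day. CCA1 and LHY, related MYB factors, are known in seedlings to peak around dawn and to repress evening genes. The pseudo-response regulators PRR9, PRR7, PRR5 and TOC1 follow in that order and repress CCA1 and LHY, while ELF3, ELF4 and LUX form the evening complex, a repressor of the night. GI, a large plant-specific protein of the evening, stabilises the F-box protein ZTL, which marks TOC1 and PRR5 for degradation. For the comparison below, LHY, CCA1 and PRR7 were taken as morning genes, PRR5 as an afternoon gene, and TOC1, GI, ELF3, ELF4 and LUX as evening genes.

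Values are RPM, reads of a gene expressed relative to a library size of 1000000 reads that match the genome. Wild type had 5611643 such reads and dcl1-5 had 4513588, which makes a single read worth 0.178 and 0.222 RPM. The members had between 17 and 158 reads in both libraries together, and their values rest on few reads. Brackets hold exact 95% intervals of counting error, and amplified RNA yields reads that need not be independent, so the true error is wider. With 1 library per genotype no difference has a replicate check and none was tested. The genes were also chosen with their ratios known, so the ratios are a description. DCL1 itself had 26 reads in the wild-type library and 3 in the mutant one. The 9 embryo markers examined all had reads in both libraries, with summed levels of 589.3 RPM in wild type and 947.6 in dcl1-5. Of the 8 at a mean of 5 RPM, 3 were at least 2-fold higher in dcl1-5 (L1L, WOX8 and WOX9) and 1 was at least 2-fold lower (PLT2). Of all genes at that mean, 33.8% were at least 2-fold higher and 4.58% lower. WOX8, with 4.28 RPM in wild type, reached the mean through dcl1-5. The other 4 markers were neither, among them LEC1, a regulator of embryo identity, with 250.7 and 286.9 RPM. All 7 markers of the seed coat, the maternal tissue around the embryo, were higher in dcl1-5, with summed levels of 66.5 and 230.6 RPM. The share higher was 68.6% of all loci and 75.03% of all genes at 5 RPM. The 5 endosperm markers with a row summed to 29.0 and 58.3 RPM, with 3 higher and 2 lower in dcl1-5, and no seed coat or endosperm marker with a row was at 0 in either library. The part of such tissue in the results below was not tested. In these pooled embryos, fewer cells that express a gene and less RNA of it per cell cannot be told apart.

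The authors' scaling leaves most genes higher in dcl1-5, which bears on every ratio below. Of the 10240 genes averaging at least 5 RPM between the libraries, 75.03% had a positive log2 ratio, and the median of log2((dcl1-5 RPM + 1) / (wild-type RPM + 1)) was 0.63. TMM scaling, which centres most genes, divides each RPM ratio by 1.59, and median-of-ratios scaling divides it by 1.39. A ratio of reads between clock genes within a library, and a gene's rank in its library, do not depend on this scaling.

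The morning genes were scarce in wild-type embryos and LHY was the clock gene that differed most between the libraries. LHY (AT1G01060) gave 12 reads in the wild-type library, which is 2.14 RPM [1.10 to 3.74], and 57 reads in the dcl1-5 library, which is 12.6 RPM [9.56 to 16.4]. The intervals do not overlap, and the ratio was 5.91 [3.13 to 12.1]. It was above 3 at its lower bound and so exceeded the shift of either scaling. CCA1 (AT2G46830), its close relative with a largely shared role, had 7 and 10 reads, or 1.25 RPM [0.502 to 2.57] and 2.22 RPM [1.06 to 4.07]. Its ratio of 1.78 [0.610 to 5.50] includes equality, and a difference was not detectable at this depth. PRR7 (AT5G02810), a repressor of CCA1 and LHY, had 10 and 22 reads, or 1.78 RPM [0.855 to 3.28] and 4.87 RPM [3.05 to 7.38], a ratio of 2.74 [1.24 to 6.47]. Its wild-type and dcl1-5 intervals overlap slightly, and the lower bound of its ratio lies under the shift of 1.39 that median-of-ratios scaling removes. All 3 morning genes were thus higher in dcl1-5 in RPM, and they remained above 0 on the log2 scale under TMM scaling, CCA1 by only 0.10.

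PRR5 (AT5G24470), which follows PRR7 in the day, had the lowest ratio of the 9 genes. Reads numbered 24 in wild type and 11 in the mutant library, or 4.28 RPM [2.74 to 6.36] and 2.44 RPM [1.22 to 4.36]. These intervals overlap, and the ratio of 0.570 [0.252 to 1.21] includes equality with the authors' scaling. Its upper bound lies under the shifts of 1.39 and 1.59 that median-of-ratios and TMM scaling remove. After either scaling PRR5 would be lower in dcl1-5 beyond counting error. The share of all loci for which this holds was not computed, so it is a description only. The log2 ratio of PRR5 was -0.62, and -1.13 after TMM scaling. Relative to PRR7, with which the comparison needs no scaling, the change was wider than its counting error: there were 0.417 PRR7 reads per PRR5 read in wild type and 2 in dcl1-5, a 4.80-fold change of that ratio [1.53 to 15.4]. The pairs were added after the data were seen, and 4 of the 8 pairs with PRR5 excluded equality. The intervals of PRR5 against CCA1, ELF3, ELF4 and LUX included it.

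**Figure D1:**
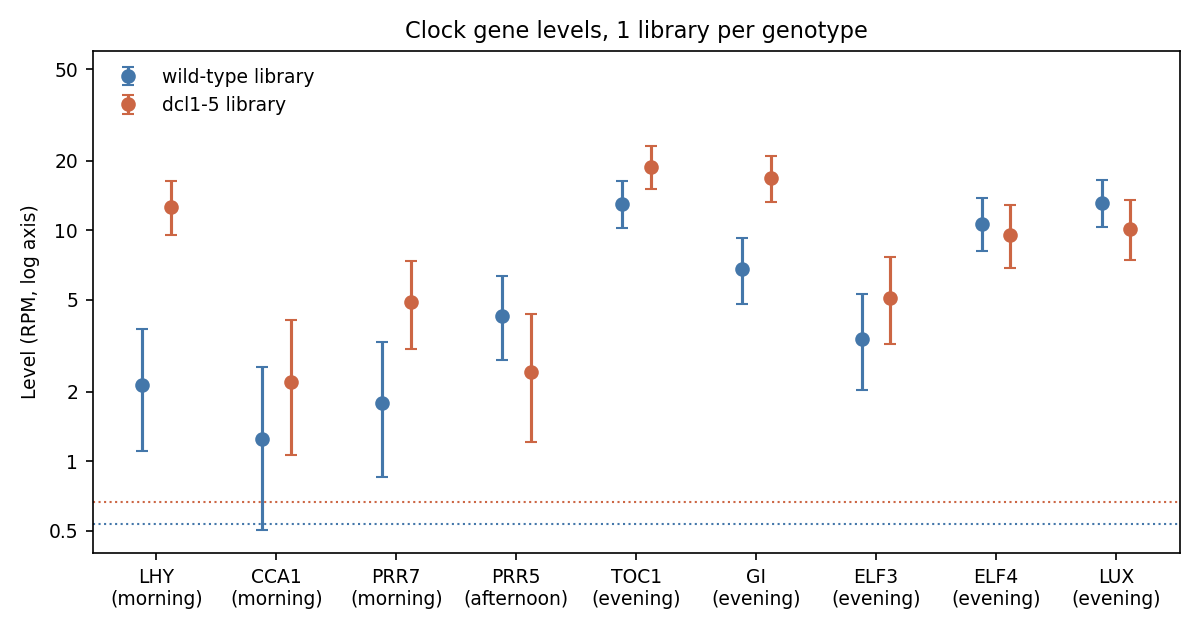
Levels of the 9 clock genes in RPM on a log axis, with 1 point per library and exact 95% Poisson intervals for counting error; dotted lines mark 3 reads in each library. LHY (2.14 and 12.6 RPM) and GI (6.77 and 16.8 RPM) are the genes whose intervals do not overlap between the libraries.

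The evening genes did not move as a block. TOC1 (AT5G61380), the evening repressor of CCA1 and LHY, had 73 wild-type and 85 dcl1-5 reads, or 13.0 RPM [10.2 to 16.4] and 18.8 RPM [15.0 to 23.3]. Its ratio was 1.45 [1.05 to 2.01], which is less than the shift of TMM scaling, and its log2 ratio of 0.50 turned to -0.13 under TMM. GI (AT1G22770) had 38 and 76 reads, or 6.77 RPM [4.79 to 9.29] and 16.8 RPM [13.3 to 21.1], intervals that do not overlap. The ratio of GI was 2.49 [1.66 to 3.77], and its log2 ratio was 1.20 with the authors' scaling and 0.59 with TMM.

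Of the 3 subunits of the evening complex, LUX and ELF4 had fewer RPM in dcl1-5 and ELF3 had more, each within counting error of equal RPM. LUX (AT3G46640), its DNA-binding subunit, had 74 wild-type and 46 dcl1-5 reads, or 13.2 RPM [10.3 to 16.6] and 10.2 RPM [7.46 to 13.6], a ratio of 0.773 [0.523 to 1.13]. ELF4 (AT2G40080), a small protein that binds ELF3, had 60 and 43 reads, or 10.7 RPM [8.16 to 13.8] and 9.53 RPM [6.89 to 12.8], a ratio of 0.891 [0.588 to 1.34]. For both genes the intervals overlap between libraries and the ratio includes equality with the authors' scaling. Both upper bounds lie under the shifts of 1.39 and 1.59 that median-of-ratios and TMM scaling remove. After either scaling both genes would be lower in dcl1-5 beyond counting error. The share of all loci for which this holds was not computed, so it is a description only. ELF3 (AT2G25930), the scaffold that joins the other two, had 19 and 23 reads, or 3.39 RPM [2.04 to 5.29] and 5.10 RPM [3.23 to 7.65], a ratio of 1.51 [0.784 to 2.92] whose log2 value of 0.47 turned to -0.07 under TMM. Summed over the complex, 153 reads in wild type and 112 in dcl1-5 gave 27.3 and 24.8 RPM, a ratio of 0.910 [0.707 to 1.17]. TOC1 and GI together had 111 and 161 reads. Per 100 reads of the evening complex there were 72.5 reads of TOC1 and GI in wild type and 143.75 in dcl1-5, a change of 1.98-fold [1.39 to 2.83] in a grouping made after the values were seen.

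**Figure D2:**
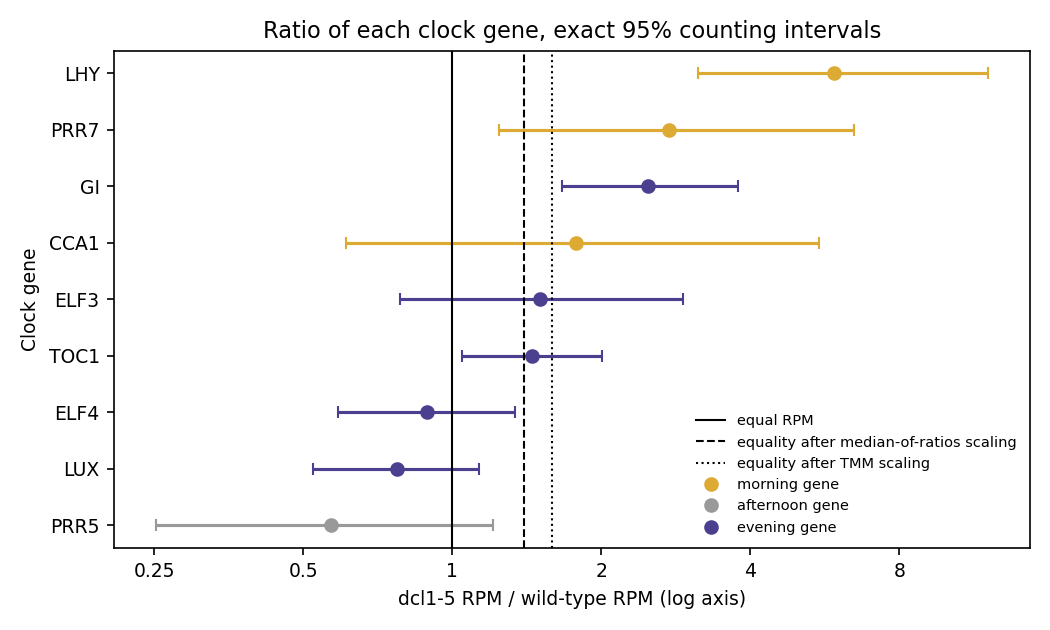
Ratio of dcl1-5 to wild-type RPM for each clock gene on a log axis, with exact conditional 95% counting intervals, coloured by time of day. The solid line is equal RPM, and the dashed and dotted lines are where genes would be equal after median-of-ratios (1.39) and TMM (1.59) scaling. The intervals of LHY and GI lie to the right of all 3 lines, and those of ELF4, LUX and PRR5 lie to the left of both scaled lines. The share of all loci beyond the scaled lines was not computed.

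Read against all genes, the share of clock genes past 2-fold was near the background. The mean of 5 RPM was reached by 5 of the 9 genes (LHY, TOC1, ELF4, LUX and GI), and 2 of these, LHY and GI, were at least 2-fold higher in dcl1-5 on the log2(RPM + 1) scale. Of all genes at that mean 33.8% were at least 2-fold higher. None of the 5 was at least 2-fold lower, beside 4.58% of all genes. LHY reached 5 RPM through its dcl1-5 value alone and so had to differ. Without the mean, PRR7 was also past 2-fold, with a log2 ratio of 1.08, which lies just inside the threshold, while CCA1 at 0.52 was the next below it. LHY was also the member at least 4-fold higher, a size seen in 7.82% of all genes at 5 RPM. By their counting intervals, 4 of the 9 genes (LHY, PRR7, GI and TOC1) were above equality and 0 were below it. Of the 8406 loci with as many reads as the members, 52.8% were above and 9.52% below. Those loci had a median log2 ratio of 0.74, and the 9 clock genes one of 0.50, with 6 positive and 3 negative.

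The comparison of morning with evening genes sets the times of day side by side within each library. The 3 morning genes had 29 wild-type and 89 dcl1-5 reads, or 5.17 RPM [3.46 to 7.42] and 19.7 RPM [15.8 to 24.3]. The 5 evening genes had 264 and 273 reads, or 47.0 RPM [41.5 to 53.1] and 60.5 RPM [53.5 to 68.1]. For every 100 evening reads there were thus 11.0 morning reads in wild type and 32.6 in dcl1-5. This 2.97-fold change [1.86 to 4.84] is free of the scaling between libraries. The contrast was added after the data were seen, and how often other groups of genes change as much was not computed, so it is a description only. LHY carried much of the change: without LHY it was 1.82-fold [0.954 to 3.58], an interval that includes equality. It was also 1.82-fold [1.24 to 2.71] with PRR5 counted among the morning genes, and 3.52-fold [2.18 to 5.79] without GI. In both libraries evening reads outnumbered morning reads. By medians, the log2 ratio was 1.08 over the morning genes and 0.47 over the evening genes, and the evening median was 0.60 below the morning one. It was 0.63 over all genes at 5 RPM, 0.74 over loci with as many reads as the members and 0.42 over all loci. With 3 and 5 genes, the morning and evening medians are the values of PRR7 and ELF3, both under a mean of 5 RPM. The ratio of PRR7 to ELF3 reads changed by 1.82-fold, with an interval of 0.629 to 5.39 that includes equality. The groups overlapped, since GI at 1.20 was above PRR7 and CCA1, and PRR5 was below all of them at -0.62.

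Between single clock genes, 36 pairs were compared by the ratio of their reads within each library. For 15 of them the interval of the change, not adjusted for the number of pairs, excluded equality. How often pairs of other loci do so was not computed, so this count is no result about the clock genes. LHY entered 6 of the 15 pairs, GI 5, and TOC1, PRR5 and LUX 4 each. CCA1 entered 0 of its 8 pairs, with 17 reads in all. The widest changes with LHY were against PRR5 and LUX. There were 0.50 LHY reads per PRR5 read in wild type and 5.18 in dcl1-5, a 10.4-fold change [3.66 to 29.9], and 0.162 and 1.24 LHY reads per LUX read, a 7.64-fold change [3.55 to 17.2]. LHY against CCA1, its relative, changed by 3.33-fold with an interval of 0.872 to 11.97, so that a difference between the pair was not detectable. GI changed by 3.22-fold against LUX [1.82 to 5.70] and by 1.72-fold against TOC1 [1.01 to 2.93], while ELF4 and LUX, partners in the evening complex, differed from each other by 1.15-fold [0.650 to 2.04].

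Ranks among all loci of each library need no scaling either. LHY stood at percentile 43.0 of the 20612 loci in wild type and at 64.6 in dcl1-5. PRR5 went the other way, from 55.2 to 35.2, LUX from 74.7 to 60.2 and ELF4 from 71.3 to 58.9. The rank of GI was higher in dcl1-5 (63.5 and 70.05), and so was that of PRR7 (40.1 and 46.0). TOC1 (74.5 and 72.0), ELF3 (50.8 and 46.9) and CCA1 (34.7 and 34.0) stood slightly lower. In all, 3 of the 9 genes had a higher rank in dcl1-5 and 6 a lower one, although 6 had a higher RPM. The share of all loci that rose or fell in rank was not computed, so this count is a description only.

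**Figure D3:**
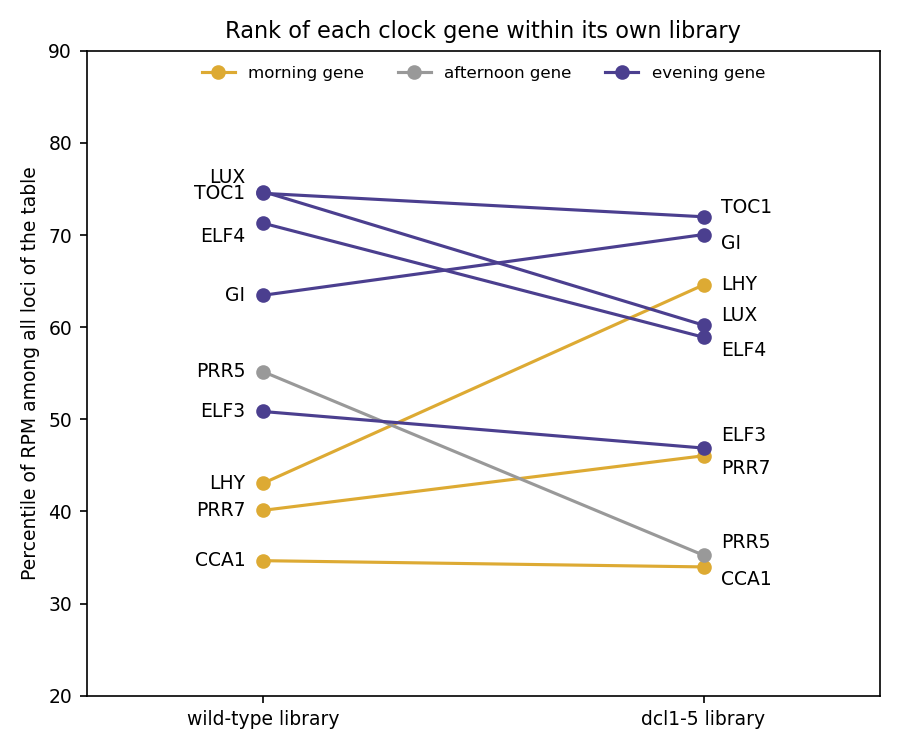
Percentile of each clock gene's RPM among all 20612 loci of its own library, with lines joining the wild-type and dcl1-5 libraries and colours for the time of day. LHY climbs from 43.0 to 64.6, whereas LUX, ELF4 and PRR5 drop by the widest margins.

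Levels between genes were compared per kb of the longest transcript in RefSeq's annotation of TAIR10.1. ELF4 stood highest on this scale in both libraries, at 17.3 RPM per kb in wild type and 15.4 in dcl1-5. Its value exceeded that of the next gene, TOC1, by 3.73-fold [2.60 to 5.32] and 2.29-fold [1.55 to 3.35]. This place rests on its short transcript of 0.619 kb. In RPM, ELF4 was below LUX and TOC1 in wild type (10.7 against 13.2 and 13.0). In dcl1-5 its RPM was below that of TOC1, GI, LHY and LUX. Whether reads of this amplified RNA scale with transcript length was not tested, and the intervals do not cover it. In wild type the order then ran TOC1 (4.63 RPM per kb), LUX (4.07), PRR5 (2.55), GI (1.57), ELF3 (1.23), LHY (0.729), PRR7 (0.551) and CCA1 (0.475). No neighbours below ELF4 in that order differed beyond counting error. In dcl1-5 the order after ELF4 was TOC1 (6.71 RPM per kb), LHY (4.31), GI (3.91), LUX (3.14), ELF3 (1.85), PRR7 (1.51), PRR5 (1.45) and CCA1 (0.843). There TOC1 exceeded LHY [1.10 to 2.22] and LUX exceeded ELF3 [1.01 to 2.93], while the other neighbours below TOC1 did not differ beyond counting error. LHY stood above GI, LUX, ELF3 and PRR5 in dcl1-5 and below them in wild type, and CCA1 was last in both libraries.

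Of the wider clock and its inputs and outputs, 7 lists held 63 genes, and 61 had a row. Of the 37 at a mean of 5 RPM, 19 were at least 2-fold higher in dcl1-5 and 2 at least 2-fold lower, beside 33.8% and 4.58% of all genes, and 13 of the 19 had less than 5 RPM in wild type, so that they reached the mean through dcl1-5. After TMM scaling 11 were higher and 2 lower of 36, beside 13.7% and 15.3% of all genes. Over all 61 genes with no such filter 50 had a positive log2 ratio and 11 a negative one, and their median was 0.82. The median was 0.42 with 68.6% positive for all 20612 loci, and 0.63 with 75.03% positive for all genes at 5 RPM. For loci with as many reads as the clock genes it was 0.74 with 76.4% positive, which is close to the median of the lists.

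Among the REVEILLE (RVE) and LNK genes, activators and coactivators of the day that are mostly morning-phased, 4 of 11 reached 5 RPM, and 3 of these were past 2-fold. All 3 had under 5 RPM in wild type and reached the mean through dcl1-5, so their count is no result. RVE4 (AT5G02840), a MYB-like relative of LHY, had 22 and 77 reads, or 3.92 and 17.1 RPM, a ratio of 4.35 [2.68 to 7.34]. AT5G52660 had 4.46 and 12.4 RPM, a ratio of 2.78 [1.71 to 4.66], LNK2 (AT3G54500) had 2.85 and 7.53 RPM, 2.64 [1.42 to 5.13], and LNK1 (AT5G64170) had 6.95 and 12.6 RPM, 1.82 [1.19 to 2.80]. LNK4 (AT5G06980), singled out after its values were seen, was lower, with 19 reads in wild type and 1 in dcl1-5. Another locus overlaps LNK4 on the same strand in the reference annotation. Over all 11 genes with a row, 9 had positive and 2 negative log2 ratios with a median of 0.73, beside 68.6% positive and a median of 0.42 for all loci. For all genes at 5 RPM these were 75.03% and 0.63, and for loci with as many reads as the 9 clock genes 76.4% and 0.74, so the list was near the background.

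Relatives of the clock genes had unlike ratios. BOA (AT5G59570), the closest relative of LUX, had 4.63 and 12.4 RPM, a ratio of 2.68 [1.65 to 4.44], whereas LUX had 0.773. ELF4-L2 (AT1G72630), an ELF4-like gene, had 20.8 and 21.05 RPM, a ratio of 1.01 [0.762 to 1.34]. These were the 2 of 5 relatives at 5 RPM, and BOA, with under 5 RPM in wild type, passed the filter through dcl1-5. Of the 14 F-box proteins and other regulators at 5 RPM, 3 were at least 2-fold higher, 2 of them with under 5 RPM in wild type, and 0 were lower, beside 33.8% and 4.58% of all genes. TEJ (AT2G31870), a glycohydrolase of poly(ADP-ribose) named after its values were seen, fell short of that mean through its low dcl1-5 value, with 33 wild-type and 5 dcl1-5 reads, 5.31-fold lower [2.06 to 17.4]. JMJ30 (AT3G20810), a histone demethylase of the evening, had 33 and 156 reads, or 5.88 and 34.6 RPM, a ratio of 5.88 [4.02 to 8.84]. DET1 (AT4G10180), a repressor of light responses, had 2.32 and 9.97 RPM, 4.30 [2.28 to 8.70], and FKF1 (AT1G68050), a blue-light F-box protein of the afternoon, had 3.92 and 9.75 RPM, 2.49 [1.46 to 4.36]. CKB3 (AT3G60250), a regulatory subunit of the kinase CK2, had 9.09 and 18.2 RPM, 1.999 [1.39 to 2.89], short of 2-fold. The median log2 ratio of all 16 was 0.64, with 13 positive and 3 negative. It was 0.42 with 68.6% positive for all loci, and 0.63 with 75.03% positive for all genes at 5 RPM.

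Most light input genes, which set the clock to day and night, had higher RPM in dcl1-5. Of 10 at 5 RPM, 7 were at least 2-fold higher and 1 was lower, beside 33.8% and 4.58% of all genes. Of these 7, 5 had under 5 RPM in wild type and passed the filter through dcl1-5. With no filter, 11 of all 12 had positive log2 ratios, with a median of 1.39, beside 68.6% and 0.42 for all loci. For all genes at 5 RPM these were 75.03% and 0.63. CRY1 (AT4G08920), a blue-light receptor, had 54 wild-type and 281 dcl1-5 reads, or 9.62 RPM [7.23 to 12.6] and 62.3 RPM [55.2 to 70.0], a ratio of 6.47 [4.82 to 8.83]. PHYE (AT4G18130) and PHYA (AT1G09570), red and far-red light receptors, had 1.60 and 11.5 RPM, 7.18 [3.51 to 16.6], and 18.0 and 64.3 RPM, 3.57 [2.84 to 4.52]. SPA1 (AT2G46340), a partner of the ubiquitin ligase COP1, had 1.78 and 9.97 RPM, 5.59 [2.78 to 12.5]. COP1 (AT2G32950) was the lower one, with 8.55 and 3.54 RPM, 2.41-fold lower [1.35 to 4.55], and was named after its values were seen. Another locus overlaps PHYE on the same strand.

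**Figure D4:**
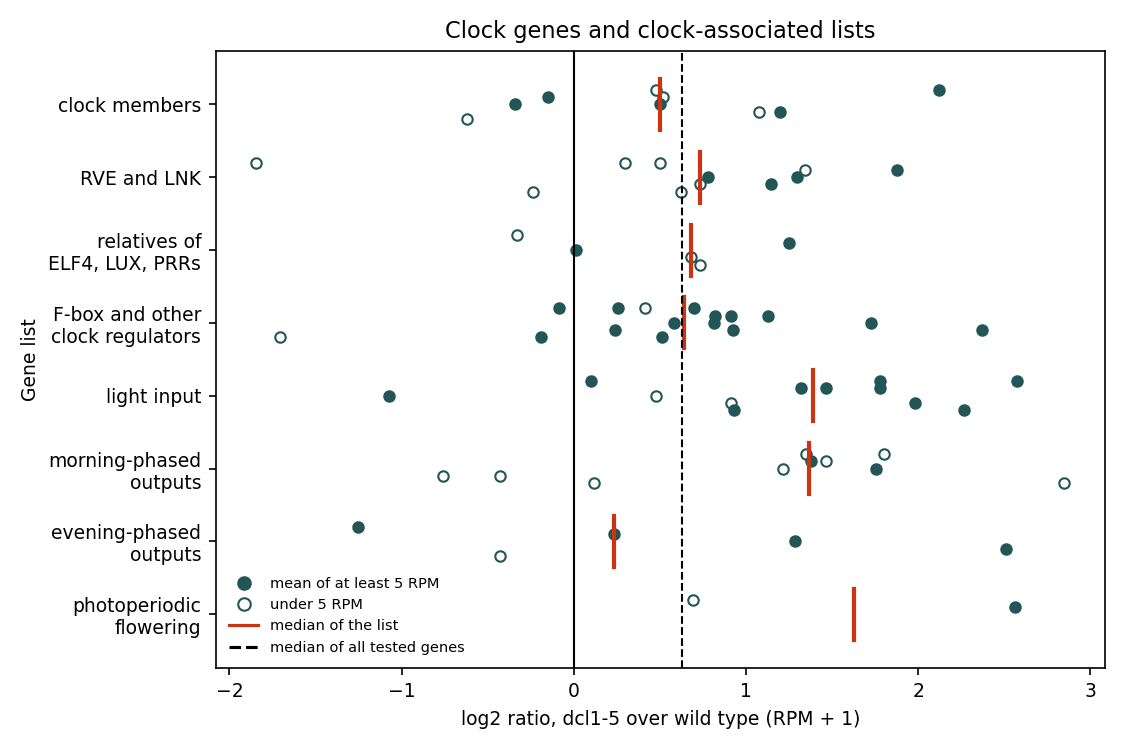
Log2 ratio of dcl1-5 over wild type, on the log2(RPM + 1) scale, for the 9 clock genes and the 61 genes of 7 clock-associated lists; filled points have a mean of at least 5 RPM, open points less, red bars are list medians and the dashed line is the median of all tested genes at 0.63. The clock genes have a median of 0.50 and the light input genes one of 1.39.

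Outputs of the clock were past 2-fold at both times of day. Both morning-phased outputs at 5 RPM were at least 2-fold higher, beside 33.8% of all genes. CAB2 (AT1G29920), a light-harvesting protein, had 96.05 and 327.0 RPM, a ratio of 3.40 [3.08 to 3.76]. CAT2 (AT4G35090), a catalase, had 39.2 and 103.5 RPM, 2.64 [2.24 to 3.11]. Reads shared with the near-identical copies of CAB2 were discarded by the unique mapping, so its level is understated. Of all 10 morning-phased outputs 8 had positive log2 ratios, beside 68.6% of all loci and 75.03% of all genes at 5 RPM. Of the 4 evening-phased outputs at 5 RPM, 2 were at least 2-fold higher and 1 lower, beside 33.8% and 4.58% of all genes. GRP7 (AT2G21660), an RNA-binding protein that is among the best-known evening transcripts, had 35715 wild-type and 12044 dcl1-5 reads, or 6364 and 2668 RPM, and was 2.39-fold lower [2.34 to 2.44]. Its relative GRP8 (AT4G39260) had 191.6 and 225.5 RPM, a ratio of 1.18 [1.08 to 1.28]. COR27 (AT5G42900), a cold- and clock-regulated gene, had 20 and 113 reads, or 3.56 and 25.04 RPM, 7.02 [4.34 to 11.9], and passed the filter through dcl1-5. The catalase CAT3 (AT1G20620) had 79.7 and 195.4 RPM, 2.45 [2.19 to 2.76]. FT (AT1G65480), the flowering signal that GI and CO control in leaves, was past 2-fold, with a log2 ratio of 2.56, and likewise passed the filter through dcl1-5, with 4.28 RPM in wild type. CO itself was under the filter with 4 and 8 reads.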

How the data were processed

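Per the labels' protocols and the series' design text, RNA of 30 pooled embryos per genotype was amplified in 2 rounds, and reads were aligned to TAIR9 with Bowtie (version not given in the sources used here), allowing up to 2 mismatches in a 25 nt seed. The authors kept uniquely mapped reads, counted those on the antisense strand of genes, and deposited RPM values, in which each library is scaled by its genome-matching reads. Their ratio column was not used.

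Dividing each library's RPM by its smallest value above 0 gave whole reads for 100% of values, at a tolerance of 0.01 reads. A count test was not run, since 1 library per genotype leaves no residual degrees of freedom. Poisson and conditional binomial (Clopper-Pearson) intervals are exact at 95%, as are conditional odds-ratio intervals for pairs of genes, and they cover counting error only. Genes averaging at least 5 RPM with a ratio of at least 2-fold on the log2(RPM + 1) scale were counted. The floor of 3 reads was 0.535 RPM in wild type and 0.665 in dcl1-5.

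RefSeq's annotation of TAIR10.1, another build than the authors', paired 20509 of 20612 identifiers and gave names, transcript lengths and overlaps. Its coordinates served only for those lengths and overlaps, and no sequences were taken from it. No clock gene overlaps another locus on its own strand there. ELF3 and LUX overlap loci on the opposite strand.

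The members and lists were chosen with earlier results of these data known. The text names all members, DCL1, up to 4 genes per list at 5 RPM with the largest absolute log2 ratio, and a few others with a remark. LEC1, the other embryo markers past 2-fold, CO and PRR9 are named for context. The alternatives tried were a pseudocount of 0.1 or of 5 RPM, no filter or one at 20 RPM, TMM (edgeR 4.0.16, R 4.3.3) and median-of-ratios scaling, and a 4-fold threshold. The ratio of morning to evening reads, the pairs, and the settings without LHY or GI were added after seeing the data. Python 3.11.15 with numpy 2.4.6, pandas 2.3.3 and scipy 1.17.1 was used, and the calculations were tested on simulated data.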

Additional observations from a re-analysis of the deposited data

How the results depend on the processing

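Under another pseudocount or scaling, the log2 ratio of each of the 9 clock genes kept its sign, apart from TOC1 (-0.13) and ELF3 (-0.07) under TMM. LHY was 1.57 with TMM and 1.30 with a pseudocount of 5 RPM, and with TMM ELF4 was -0.76, LUX -0.96 and GI 0.59. The count of clock genes at least 2-fold higher, 2 of 5, was 1 of 5 with a pseudocount of 5 RPM, TMM, median-of-ratios scaling or a 4-fold threshold, and 3 of 9 with no filter. Of all genes, 33.8% were higher with the authors' scaling, 13.7% with TMM and 7.82% at 4-fold. Counts of all genes for the other settings stand below. No clock gene reached a mean of 20 RPM. The evening minus morning median of -0.60 was -0.27 with a pseudocount of 5 RPM, -1.94 with members at 5 RPM, where LHY is the sole morning gene, -0.32 with PRR5 in the morning, -0.92 with PRR5 in the evening and -0.32 without LHY. It was -0.87 with a pseudocount of 0.1 RPM and -0.90 by means. The change in morning per evening reads, 2.97-fold, was 1.82-fold without LHY or with PRR5 in the morning. Of all 10240 genes at 5 RPM, 3464 were higher and 469 lower. These were 2388 and 319 of 10240 with a pseudocount of 5 RPM, 1379 and 1540 of 10059 with TMM, and 1859 and 1119 of 10102 with median-of-ratios. They were 5706 and 1154 of 20612 with no filter, 1243 and 220 of 4810 at 20 RPM, and 801 and 83 of 10240 at 4-fold. The associated lists, 19 higher and 2 lower of 37, had 14 and 1 of 37 with a pseudocount of 5 RPM, 11 and 2 of 36 with TMM, and 12 and 2 of 36 with median-of-ratios. They had 25 and 4 of 61 with no filter, 6 and 1 of 15 at 20 RPM, and 5 and 0 of 37 at 4-fold. With fewer genes or a stricter fold these counts fall by construction. Depth limits CCA1, with 17 reads in all, PRR5, PRR7 and ELF3 most. No paired analysis was possible because each genotype has 1 library.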
